A study of Mus musculus with 18 samples.

Results

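Glycosyltransferases that build the sugar chains of mucins and of the epithelial surface were followed as a set of 10 genes, among 47729 gene identifiers in each table, in bulk RNA sequencing of epithelial cells sorted from mouse ileum. The genes were chosen by name (Fut2, Fut4, Fut8, Gcnt1, Gcnt3, C1galt1, C1galt1c1, B4galnt2, B3gnt7 and St6galnac1), and each symbol matched 1 Ensembl identifier. Fut2 and Gcnt1 were singled out because they were higher in lactating females than in virgin males in these same libraries. That comparison is therefore given below as values, with no test. The 18 libraries came from 6 lactating females on day 7 of lactation, 6 virgin males and 6 virgin females, the virgin animals being of matched age. All mice were kept on standard chow (RM3 for breeding, RM1 otherwise). Lactating and virgin animals may therefore have eaten different chow, and diet could then not be told apart from lactation. The sources used here do not give strain, age in weeks or sort gates. Nothing in the labels says outright that each library is 1 animal, so p-values measure the spread between libraries.

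Mucin-type O-glycans start with a GalNAc sugar on serine or threonine. C1galt1 adds galactose to make the core 1 structure, and it needs the chaperone C1galt1c1 (Cosmc) to fold. Gcnt1 and Gcnt3 add a branch to core 1, and B3gnt7 lengthens chains by adding GlcNAc. The chains are then capped: St6galnac1 adds sialic acid to the first GalNAc, B4galnt2 adds a terminal GalNAc, and Fut2 and Fut4 add fucose in different linkages. Fut8 works elsewhere, fucosylating the core of N-glycans. In the mouse small intestine, fucose placed by Fut2 on the epithelial surface is known as a food source and attachment site for microbes, and its production is known to respond to the cytokine IL-22.

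Library totals ran from 34577104 to 49039300 counts. The sorted cells carried the epithelial gene Epcam at 1504 to 3165 CPM (read counts scaled to a common library size with TMM), whereas Ptprc, the general leukocyte gene, stood at 0.0397 to 0.373 CPM. Xist and Ddx3y followed the labelled sex, apart from 5.85 CPM of Xist in virgin male 6. Virgin female 2 and virgin male 6 stood apart, with 31048 and 29980.5 CPM of Gm42418, which overlaps ribosomal RNA, against 1230.2 to 4477 CPM elsewhere. Tests were edgeR quasi-likelihood tests over 15572 genes with Benjamini-Hochberg adjustment, with calls made below an adjusted p of 0.05. All 10 members passed the filter on low counts. In bulk samples, fewer cells of a type and less RNA per cell cannot be told apart.

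Per kilobase of exon, the members ran from abundant to scarce. B4galnt2 led at 199 ± 26.2 CPM per kb (SD over 18 libraries), followed by C1galt1c1 at 21.5 ± 2.54 and C1galt1 at 13.5 ± 1.55 CPM per kb. Each of these 3 exceeded the next gene in the order in 18 of 18 libraries. Fut8 (8.59 ± 0.957 CPM per kb), Gcnt3 (8.33 ± 2.17) and B3gnt7 (8.20 ± 6.82) lay close together: Fut8 exceeded Gcnt3 in 13 libraries and Gcnt3 exceeded B3gnt7 in 14. Fut4 followed at 4.98 ± 0.916 CPM per kb and Gcnt1 at 2.22 ± 2.59 CPM per kb. Fut2 (0.468 ± 0.610 CPM per kb) and St6galnac1 (0.281 ± 0.149) closed the order, and Fut2 was the higher of the pair in only 10 of 18 libraries.

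**Figure D1:**
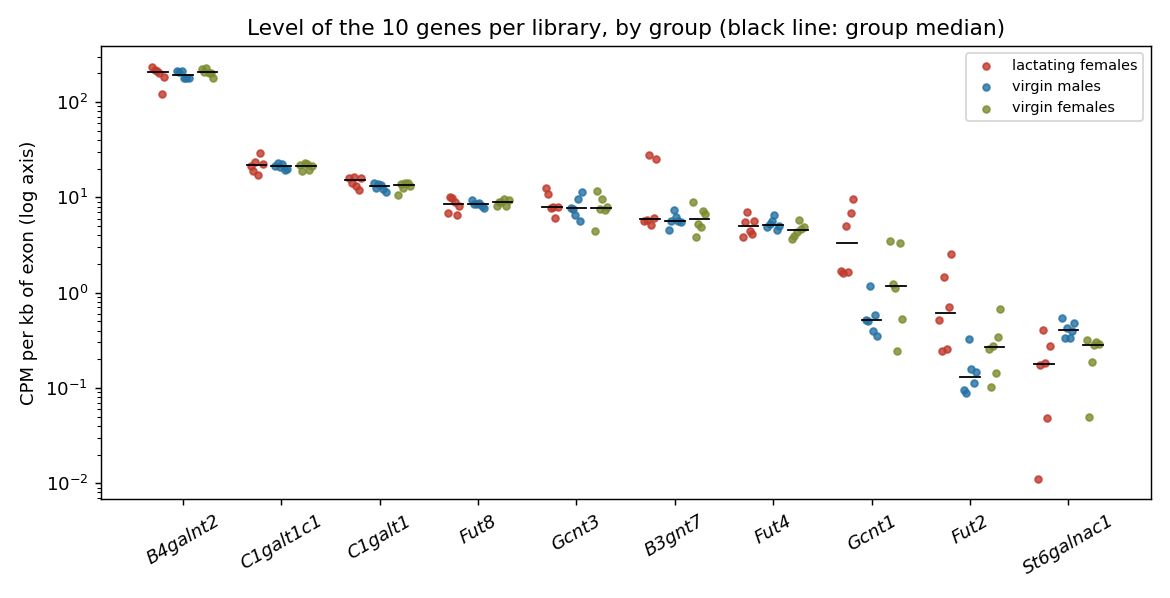
Level of the 10 glycosyltransferase genes in CPM per kilobase of exon (log axis), with 1 point per library for lactating females, virgin males and virgin females and a black line at each group median. The genes run from B4galnt2 at 199 CPM per kb to St6galnac1 at 0.281 CPM per kb, and Gcnt1, Fut2 and St6galnac1 scatter most.

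Between lactating and virgin females, 0 of the 10 members were called by edgeR, where the share over all genes was 0.0578% (0.0385% higher and 0.0193% lower). DESeq2 (0.423% of all genes) and limma voom (0.0128%) called 0 as well. At an unadjusted p under 0.05 there were 3 members, Fut2, B3gnt7 and Gcnt1, and 6.44% of all genes. Fut2 and Gcnt1 were singled out by these same lactating libraries, so their p-values and intervals are not free of that choice. The count of 3 is therefore not a test against that share. The fold change was above 0 for 7 members and below for 3, with a median log2 fold change of 0.146, against -0.0026 over all genes. Of all genes 49.4% were above 0. The high values of these 3 genes came from a few lactating libraries. Marker lists also differed in this comparison. The enteroendocrine list had 7 of 7 genes above 0 (median log2 fold change 0.68), summing to 219 to 405 CPM in lactating and 161 to 232 CPM in virgin females, and the villus tip list had 5 of 7 above 0 (median 0.82), summing to 1769.5 to 19534 and 1846 to 7359.7 CPM. EdgeR called 0 genes of either list, while DESeq2 called the enteroendocrine genes Chga, Gcg and Tac1. The stem and Paneth lists each had 0 of 6 genes above 0 (median -0.22 and -0.41). Lactating female 3, high for all 3 members, had the lowest enteroendocrine and villus tip sums of its group. Lactating female 6, also high for all 3, had the highest enteroendocrine sum, at 405 CPM, and a villus tip sum of 6748 CPM. The part of these cells in the members' values was not tested.

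C1galt1 and its chaperone C1galt1c1, which together make core 1, varied little between libraries. C1galt1 (chromosome 6, 7844842 to 7875687, plus strand) had 72.6 to 98.9 CPM in lactating females, 69.8 to 85.3 in virgin males and 64.7 to 86.4 in virgin females. C1galt1c1 (chromosome X, 38630785 to 38635087, minus strand) averaged 32.0 ± 5.87, 30.7 ± 2.01 and 30.6 ± 2.47 CPM in lactating females, virgin males and virgin females (SD, n = 6 each). The 95% intervals of the lactating over virgin female log2 fold changes were -0.04 to 0.37 for C1galt1 and -0.16 to 0.29 for C1galt1c1.

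Gcnt1, the enzyme that branches core 1 into core 2 (chromosome 19, 17326141 to 17372844, minus strand), had 9.66, 9.33, 28.6, 9.48, 39.3 and 55.8 CPM in lactating females 1 to 6. It had 3.0, 2.89, 6.74, 2.28, 3.37 and 2.04 CPM in virgin males 1 to 6 and 20.1, 7.18, 6.51, 1.39, 19.3 and 3.07 CPM in virgin females 1 to 6. Lactating females 3, 5 and 6 exceeded every virgin library, whereas virgin females 1 and 5 exceeded the other 3 lactating females. The means were 25.4 ± 19.4 CPM in lactating females, 3.39 ± 1.71 in virgin males and 9.60 ± 8.13 in virgin females (SD, n = 6 each). Lactating over virgin females, the log2 fold change was 1.40 (SE 0.58, 95% interval 0.17 to 2.64, edgeR adjusted p = 0.689, higher than the virgin female mean in 4 of 6 libraries). It was 1.007 without lactating female 6 and 1.905 with the cell cycle score of each library as a covariate.

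Gcnt3, which makes the same branch and is the mucin-type member of its family (chromosome 9, 70031496 to 70038088, minus strand), did not share this pattern. It averaged 38.0 ± 10.1 CPM in lactating females, 34.9 ± 9.07 in virgin males and 34.7 ± 10.2 in virgin females (SD, n = 6 each). In lactating over virgin females Gcnt3 was at a log2 fold change of 0.13 (95% interval -0.32 to 0.58), and in virgin males over virgin females at 0.01 (95% interval -0.45 to 0.46). Per kilobase, Gcnt3 stood at 6.14 to 12.4 CPM per kb in lactating females, 5.72 to 11.5 in virgin males and 4.42 to 11.5 in virgin females, whereas Gcnt1 stood at 1.62 to 9.69, 0.355 to 1.17 and 0.241 to 3.49 CPM per kb in the same groups. The ranges of these branching enzymes were therefore apart in both virgin groups and overlapped in lactating females.

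B3gnt7, which extends chains with GlcNAc (chromosome 1, 86302832 to 86307305, plus strand), had 23.5, 24.0, 116, 21.1, 25.3 and 104 CPM in lactating females 1 to 6. In virgin males it had 18.6 to 30.4 CPM (median 23.3) and in virgin females 15.9 to 37.3 CPM (median 24.5). Lactating females 3 and 6 stood alone, and the other 4 lactating libraries lay inside the range of virgin females. The log2 fold change of lactating over virgin females was 1.04 (SE 0.39, 95% interval 0.20 to 1.88, edgeR adjusted p = 0.640, with 2 of 6 libraries above the virgin female mean). It was 0.637 without lactating female 3 and 0.727 without lactating female 6. The antisense gene Gm28626 overlaps exons of B3gnt7, and whether counting used strand is not given in the sources used here, but that gene had at most 7 counts in any library.

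The start-site windows of Gcnt1 and B3gnt7 are printed because these genes varied most between libraries among members with a window, and that of C1galt1 because it varied little. Windows hold 250 bases before to 50 after a RefSeq start (build GRCm38.p6), were found for 6 of 10 members, and were not listed for C1galt1c1, Gcnt3, St6galnac1 and Fut2. Capitals mark CG pairs. Gcnt1 has 3 starts on the minus strand, at chr19:17372795-17373094, chr19:17356618-17356917 and chr19:17339456-17339755. B3gnt7 has 1 on the plus strand, at chr1:86302971-86303270, and C1galt1 has 1 on the plus strand, at chr6:7844974-7845273.
Gcnt1 start 1: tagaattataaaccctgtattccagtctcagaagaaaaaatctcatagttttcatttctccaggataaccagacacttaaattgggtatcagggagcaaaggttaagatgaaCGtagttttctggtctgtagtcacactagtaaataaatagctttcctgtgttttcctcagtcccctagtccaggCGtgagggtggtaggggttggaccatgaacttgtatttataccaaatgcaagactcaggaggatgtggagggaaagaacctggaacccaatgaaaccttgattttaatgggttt
Gcnt1 start 2: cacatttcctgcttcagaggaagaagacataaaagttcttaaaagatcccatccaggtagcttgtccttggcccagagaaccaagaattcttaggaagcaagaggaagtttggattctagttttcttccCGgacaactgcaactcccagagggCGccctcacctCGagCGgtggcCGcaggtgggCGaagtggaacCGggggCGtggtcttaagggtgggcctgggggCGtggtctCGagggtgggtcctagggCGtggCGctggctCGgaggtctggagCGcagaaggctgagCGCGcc
Gcnt1 start 3: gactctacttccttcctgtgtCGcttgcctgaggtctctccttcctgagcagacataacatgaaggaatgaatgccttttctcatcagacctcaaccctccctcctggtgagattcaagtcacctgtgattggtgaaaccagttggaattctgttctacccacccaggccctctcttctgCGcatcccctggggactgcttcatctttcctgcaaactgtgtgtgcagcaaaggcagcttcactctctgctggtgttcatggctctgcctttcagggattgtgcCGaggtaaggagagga
B3gnt7: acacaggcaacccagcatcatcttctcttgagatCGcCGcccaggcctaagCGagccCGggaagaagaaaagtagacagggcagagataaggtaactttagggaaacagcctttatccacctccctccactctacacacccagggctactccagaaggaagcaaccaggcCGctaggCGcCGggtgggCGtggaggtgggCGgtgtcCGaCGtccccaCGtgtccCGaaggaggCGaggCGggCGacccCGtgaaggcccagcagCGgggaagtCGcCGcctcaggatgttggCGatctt
C1galt1: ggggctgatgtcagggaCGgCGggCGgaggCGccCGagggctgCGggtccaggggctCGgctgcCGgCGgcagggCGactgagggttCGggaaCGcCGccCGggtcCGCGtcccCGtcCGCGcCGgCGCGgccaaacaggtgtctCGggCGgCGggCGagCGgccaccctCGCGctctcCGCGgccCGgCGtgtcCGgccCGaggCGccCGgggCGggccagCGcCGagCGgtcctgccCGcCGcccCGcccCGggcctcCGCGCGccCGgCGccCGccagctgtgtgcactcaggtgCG

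The Gcnt1 windows hold 2, 16 and 3 CG pairs and the B3gnt7 window 21, whereas that of C1galt1 holds 52, against a median of 7 over 32851 windows of that length. The letters TTCNNNGAA, the STAT consensus, and ACANNNTGT, the core of the glucocorticoid and progesterone receptor element, each read the same on both strands. Neither occurs in any of the 11 member windows. Over all windows the shares were 8.3% and 6.85%. The counts are per gene, so they do not show which start was used.

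St6galnac1, the sialyltransferase of mucin GalNAc (chromosome 11, 116765025 to 116775507, minus strand), was scarce, with 1 to 58 counts per library. It had 0.0267, 0.417, 0.962, 0.439, 0.117 and 0.664 CPM in lactating females 1 to 6. The value of lactating female 1 is 1 count, under the 3 counts taken as a floor. In virgin males it had 0.808 to 1.31 CPM and in virgin females 0.118 to 0.755 CPM. The log2 fold change of lactating over virgin females was -0.37 (95% interval -1.43 to 0.69), and -0.625 with the cell cycle score and -0.633 with the goblet score as a covariate.

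B4galnt2, which makes the terminal GalNAc of the Sd(a) type (chromosome 11, 95865943 to 95914891, minus strand), had 407, 376, 366, 350.5, 211 and 315 CPM in lactating females 1 to 6. Virgin males had 306 to 365 CPM and virgin females 306 to 393 CPM. Only lactating female 5 fell outside the virgin range on the low side, and the log2 fold change of lactating over virgin females was -0.07 (95% interval -0.35 to 0.20). The antisense gene Gm11534, which overlaps its exons, had at most 28 counts.

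Fut2, the terminal fucosyltransferase of the epithelial surface (chromosome 7, 45648591 to 45666394, GRCm38, minus strand), had 2.80, 1.31, 7.91, 1.39, 3.81 and 13.7 CPM in lactating females 1 to 6. In virgin males 1 to 6 it had 0.518, 0.485, 1.79, 0.849, 0.613 and 0.802 CPM, and in virgin females 1 to 6 it had 1.40, 0.559, 1.51, 0.786, 1.87 and 3.65 CPM. Lactating females 6 and 3 were the highest of all libraries, and lactating females 2 and 4 lay below the virgin female mean. The group means were 5.14 ± 4.82 CPM in lactating females, 0.843 ± 0.488 in virgin males and 1.63 ± 1.10 in virgin females (SD, n = 6 each). The log2 fold change of lactating over virgin females was 1.65 (SE 0.55, 95% interval 0.47 to 2.82, edgeR adjusted p = 0.542, higher than the virgin female mean in 4 of 6 libraries). Without lactating female 6 it was 1.07. These levels rest on 19 to 473 counts per library.

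**Figure D2:**
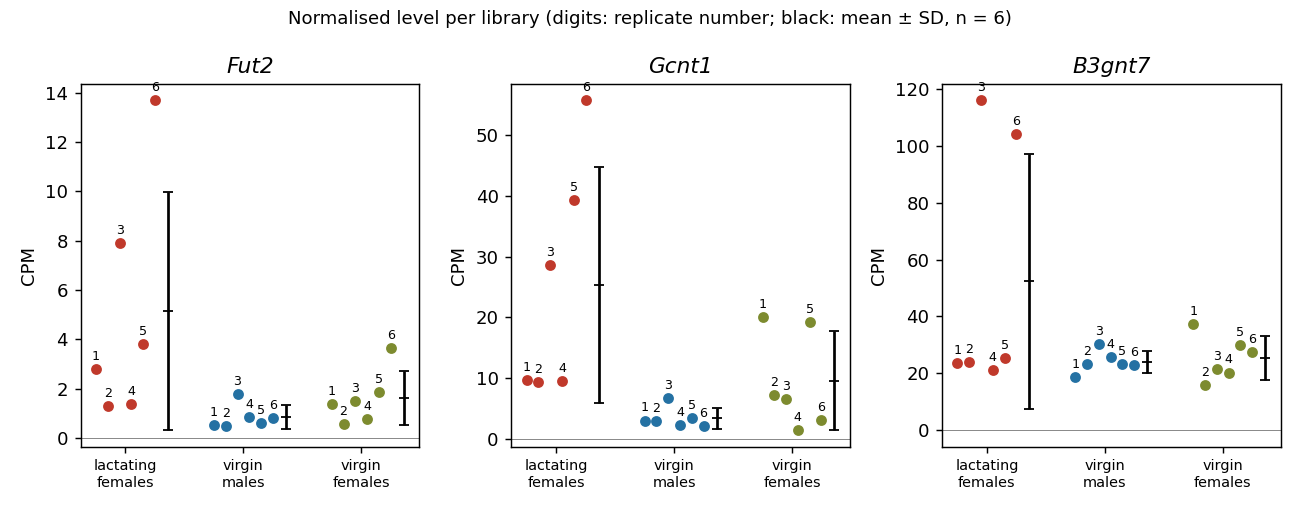
Normalised level (CPM) of Fut2, Gcnt1 and B3gnt7 in each library of lactating females, virgin males and virgin females, with replicate numbers beside the points and the mean ± SD (n = 6) in black. Lactating females 3 and 6 are high for all 3 genes (B3gnt7 at 116 and 104 CPM), and lactating female 5 is high for Gcnt1 at 39.3 CPM.

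Fut4, which adds fucose inside Lewis x structures (chromosome 9, 14748320 to 14752393, minus strand), averaged 20.7 ± 4.81 CPM in lactating females, 21.6 ± 2.96 in virgin males and 18.5 ± 3.05 in virgin females (SD, n = 6 each). Fut8, the core fucosyltransferase of N-glycans (chromosome 12, 77238125 to 77476338, plus strand), averaged 66.5 ± 11.8, 67.2 ± 4.34 and 69.9 ± 5.24 CPM in the same groups (SD, n = 6 each). Groups overlapped for both genes. The lactating over virgin female log2 fold change was 0.16 (95% interval -0.14 to 0.47) for Fut4 and -0.07 (95% interval -0.29 to 0.15) for Fut8.

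In virgin males against virgin females, 0 of the 10 members were called, where the share over all genes was 0.0835% (0.045% higher and 0.0385% lower). DESeq2 (0.15% of all genes) and limma voom (0.128%) called 0 too. Gcnt1 alone had an unadjusted p under 0.05, as did 8.32% of all genes. The low male values of Gcnt1 were part of the choice of this gene, so its p-value and interval are not free of that choice. The log2 fold change of Gcnt1 was -1.49 (SE 0.59, 95% interval -2.75 to -0.24, edgeR adjusted p = 0.565), and all 6 male libraries lay below the virgin female mean. Cell type markers moved alongside, with 0 called by edgeR. Of the cell cycle genes 18 of 18 were above 0 (median log2 fold change 0.36), and 8 of 8 absorptive enterocyte genes were below 0 (median -0.63). Of all genes 48.0% were above 0. The 4 tested T cell genes ran from -1.06 for Gzma to -0.01 for Ptprc (median -0.67). Their levels were low, Ptprc averaging 0.240 CPM in virgin males and 0.239 CPM in virgin females. With the cell cycle score of each library as a covariate Gcnt1 was at -0.614 and St6galnac1 at 0.414, nearer 0 than without it, and Fut2 at -1.146, farther from 0. The part of these cells in the members' values was not tested. Fut2 was at -0.95 (SE 0.57, 95% interval -2.15 to 0.25, edgeR adjusted p = 0.571) and at -0.534 without virgin female 6. St6galnac1 was at 0.81 (SE 0.48, 95% interval -0.22 to 1.84, edgeR adjusted p = 0.571), although its male and female values did not overlap, the lowest male standing at 0.808 CPM and the highest virgin female at 0.755 CPM. Over all genes, 0.193% had every male above every virgin female in this way. The intervals of the 7 other members all included 0, the widest being that of B3gnt7 (-0.91 to 0.76). The median log2 fold change of the members was -0.035, against -0.013 over all genes.

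**Figure D3:**
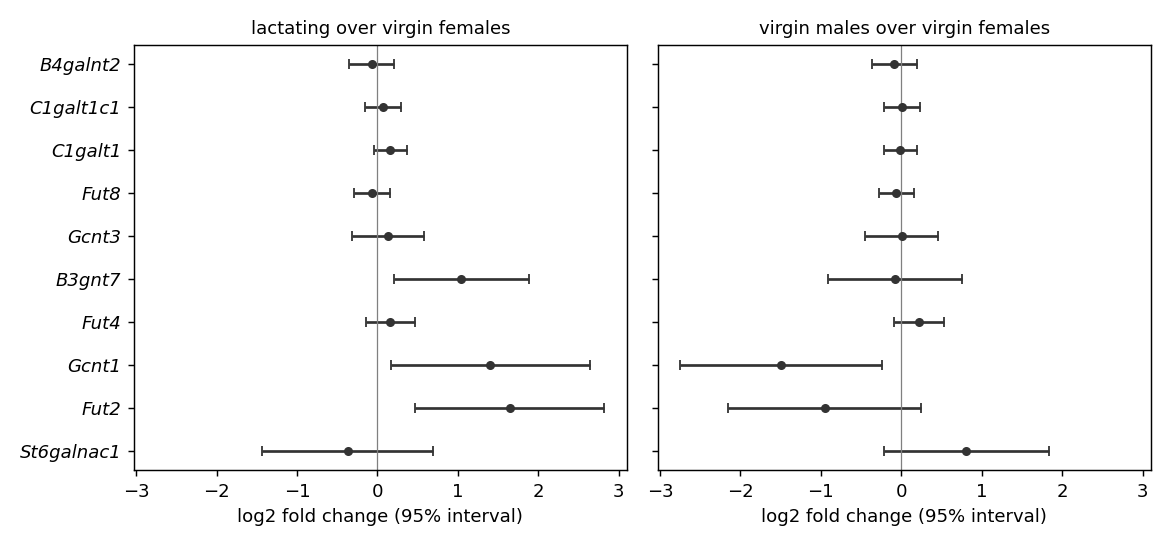
Log2 fold changes of the 10 genes in lactating over virgin females (left) and virgin males over virgin females (right), with 95% intervals. The intervals of Fut2, Gcnt1 and B3gnt7 lie above 0 in lactating females before adjustment, and that of Gcnt1 lies below 0 in virgin males. Fut2 and Gcnt1 were singled out by values of the same lactating and male libraries.

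The contrast between lactating females and virgin males, from which Fut2 and Gcnt1 were taken, is a description only and mixes sex with lactation. It shares its libraries with the other comparisons. The log2 fold changes were 2.90 for Gcnt1 and 2.60 for Fut2. The lowest lactating female had 9.33 CPM of Gcnt1 and the highest virgin male 6.74 CPM. For Fut2, lactating females 2 and 4 (1.31 and 1.39 CPM) lay below virgin male 3 (1.79 CPM). Among the other members, B3gnt7 was at 1.12 and St6galnac1 at -1.19, with 5 of 6 lactating libraries below the lowest male, and the other 6 lay between -0.06 and 0.17.

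The members differed in how much they scattered between libraries of 1 group. In lactating females the SD of log2 CPM was 1.33 for Fut2, 1.17 for Gcnt1 and 1.16 for B3gnt7, above 98.6%, 97.3% and 97.2% of the genes tested. In virgin females it was 0.92 for Fut2 and 1.49 for Gcnt1, above 94.2% and 99.2%, whereas B3gnt7 at 0.44 exceeded only 66.6%. C1galt1, C1galt1c1 and Fut8 lay at 0.18, 0.26 and 0.26 in lactating females, where the median gene had 0.36. In virgin males, where the median gene had 0.20, Fut2 at 0.66 and Gcnt1 at 0.60 exceeded 92.4% and 90.5%. St6galnac1 reached 1.42 in lactating females, on few counts.

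To see which members moved together inside groups, deviations from the group mean (log2 CPM) were correlated over the 18 libraries for all 45 pairs, with permutation within groups. The members were chosen with earlier results of these data known, and Fut2 and Gcnt1 were singled out by these same libraries. The p-values of pairs are therefore a description. How many pairs of other genes would pass was not measured. After adjustment 1 pair passed with both measures: Fut2 with B3gnt7 (Pearson's r = 0.803, permutation p = 0.00085, adjusted p = 0.0382; Spearman's rho = 0.767, permutation p = 0.00094, adjusted p = 0.0423). Leaving out the 2 libraries whose B3gnt7 deviation was farthest from the median gave r = 0.713, and leaving out the 2 rich in Gm42418 gave 0.793. Group means were not taken anew for these values. They therefore still carry the libraries left out and cannot show how much r rests on them. In each group alone r was positive, at 0.892 in lactating females, 0.837 in virgin males and 0.653 in virgin females (n = 6 each). Gcnt1 and Gcnt3, which make the same branch, had r = -0.635 (rho = -0.653, adjusted p = 0.239 and 0.133 after permutation), negative in all 3 groups. Gcnt1 with Fut2 had r = 0.512 (adjusted p = 0.322), and r was 0.880 in lactating females, 0.641 in virgin males and 0.111 in virgin females.

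**Figure D4:**
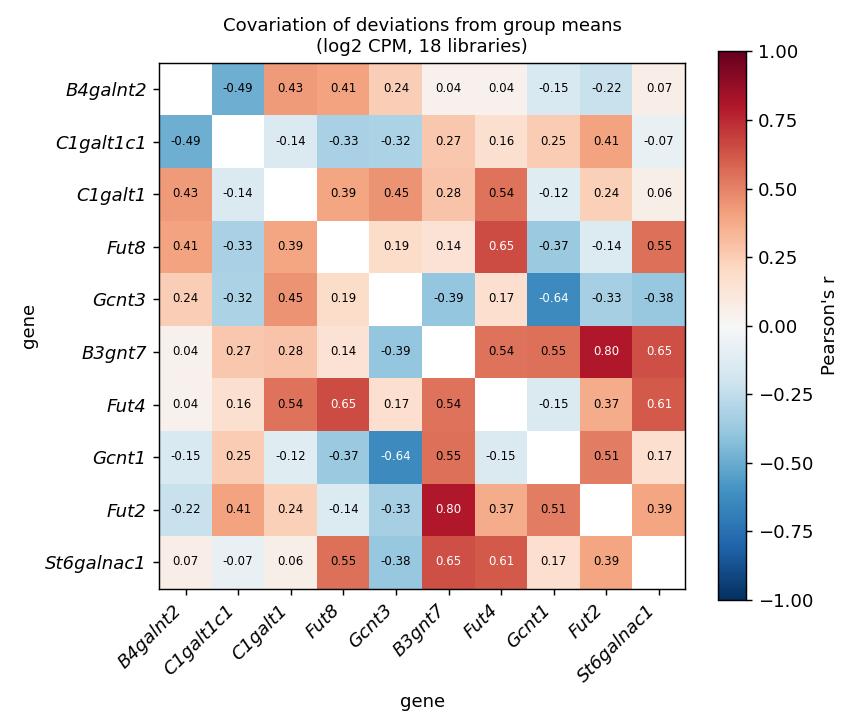
Pearson's r of deviations from group means (log2 CPM, 18 libraries) for the 45 pairs of genes, on a colour scale from -1 to 1. Fut2 with B3gnt7 (r = 0.803) is the highest value, and Gcnt1 with Gcnt3 (r = -0.635) the lowest.

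The same deviations were set against 4 list scores, giving 40 relations, of which 7 passed adjustment with both measures. How many of all genes would pass the same relations was not measured, so the count of 7 does not mark out these members. These relations were chosen after values were seen. The adjustment over 40 does not cover that choice, so the p-values for list scores are a description. Values without the 2 farthest libraries, judged by the score, kept the group means of all 18 libraries here and below. They cannot show how much r rests on the libraries left out. Fut4 and Fut8 followed the score of dividing crypt cells, averaged over 18 genes of DNA replication and mitosis, whose summed level was 359 to 1104 CPM in lactating females, 746 to 987 in virgin males and 356 to 1077 in virgin females. For Fut4 r was 0.817 (rho = 0.827, permutation p = 0.00027 and 0.00034, adjusted p = 0.00467 and 0.0068), and 0.740 once the 2 farthest libraries were left out. For Fut8 r was 0.801 (rho = 0.864, permutation p = 0.00034 and 6e-05, adjusted p = 0.00467 and 0.0024), and 0.751 without those. Group by group, Fut4 had r = 0.807 in lactating females, 0.792 in virgin males and 0.932 in virgin females, and Fut8 0.909 in lactating females, 0.492 in virgin males and 0.827 in virgin females. Gcnt3 followed the goblet score, the mean of 8 genes of mucus-secreting cells (r = 0.659, rho = 0.678, adjusted p = 0.0167 and 0.0221 after permutation, and r = 0.678 without the 2 farthest libraries). The part of cell type shares in these 3 relations was not tested.

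Fut2, Gcnt1 and B3gnt7 followed the IL-22 response list. It holds the antimicrobial lectins Reg3b and Reg3g, the feedback inhibitor Socs3, the receptor genes Il22ra1 and Il10rb, Stat3 and others. For B3gnt7 r was 0.857 (rho = 0.802, permutation p = 0.00035 and 0.00127, adjusted p = 0.00467 and 0.0169), and 0.815 without the 2 farthest libraries. For Fut2 r was 0.769 (rho = 0.746, permutation p = 0.00321 and 0.00369, adjusted p = 0.0183 and 0.0221), and 0.627 without those. Group by group, Fut2 had r = 0.984 in lactating females, 0.690 in virgin males and 0.351 in virgin females. For Gcnt1 r was 0.751 (rho = 0.748, permutation p = 0.00250 and 0.00387, adjusted p = 0.0167 and 0.0221), and 0.700 without the 2 farthest. The summed level of the list was 5204, 3902, 26938, 4093, 12192 and 33498 CPM in lactating females 1 to 6, and libraries 6, 3 and 5, the highest for the list, were also the 3 highest of all libraries for Fut2 and for Gcnt1. For B3gnt7 only 3 and 6 stood out. The list summed to 3533 to 6484 CPM in virgin males and 2076 to 12135 CPM in virgin females. In lactating females the sum averaged 14304 CPM, of which Reg3b averaged 9609 and Reg3g 4132 CPM. Of the 8 tested genes of the list edgeR, DESeq2 and limma voom called 0 in either comparison with virgin females. EdgeR called 0.0578% of all genes in lactating and 0.0835% in virgin males over virgin females. At an unadjusted p under 0.05 there were 2 in lactating and 1 in virgin males, where all genes gave 6.44% and 8.32%. The 1 in virgin males was Stat3, which was lower (log2 fold change -0.37). The fold change was above 0 for 6 of the 8 genes in lactating (median 0.57) and for 0 in virgin males (median -0.37). Of all genes 49.4% and 48.0% were above 0 in these comparisons. Socs3 was at 0.79 (SE 0.28, edgeR adjusted p = 0.569) and Reg3b at 1.45 (SE 0.54, edgeR adjusted p = 0.607) in lactating over virgin females. Il22ra1 was at -0.37, Stat3 at -0.08 and Il10rb at 0.01 there. The part of IL-22 in the values of Fut2, Gcnt1 and B3gnt7 was not tested.

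Gcnt1 also followed the markers of T cells and intraepithelial lymphocytes, cells in which it is expressed too. Against their summed level r was 0.814 (rho = 0.765, permutation p = 0.00069 and 0.00227, adjusted p = 0.0069 and 0.0221), and 0.735 without the 2 farthest libraries. By group it was 0.975 in lactating females, 0.243 in virgin males and 0.824 in virgin females. The 8 markers together stood at 0.575 to 6.12 CPM in lactating females, 0.444 to 1.78 in virgin males and 0.853 to 4.31 in virgin females, with 4 of 8 above the filter on low counts and 0 of 8 at zero in all libraries. In lactating females Gzma averaged 1.17 and Gzmb 0.452 CPM of a mean sum of 2.72 CPM. Lactating over virgin females, the 4 tested genes were at log2 fold changes of 1.04 (Gzma), 0.86 (Gzmb), 0.02 (Ptprc) and -0.49 (Itgae). Ptprc averaged 0.247 CPM in lactating and 0.239 CPM in virgin females. The sum therefore need not measure the number of these cells. In lactating female 6 the 8 markers summed to 6.12 CPM and Gcnt1 stood at 55.8 CPM. Fut2 had r = 0.673 (rho = 0.723) with these markers, where Spearman's rho passed and Pearson's r did not (adjusted p = 0.0667 for r and 0.0255 for rho after permutation), and 0.903 in lactating females. B3gnt7 had r = 0.644 (rho = 0.637, adjusted p = 0.104 and 0.0714 after permutation). The part of these cells in the values of the 3 genes was not tested.

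**Figure D5:**
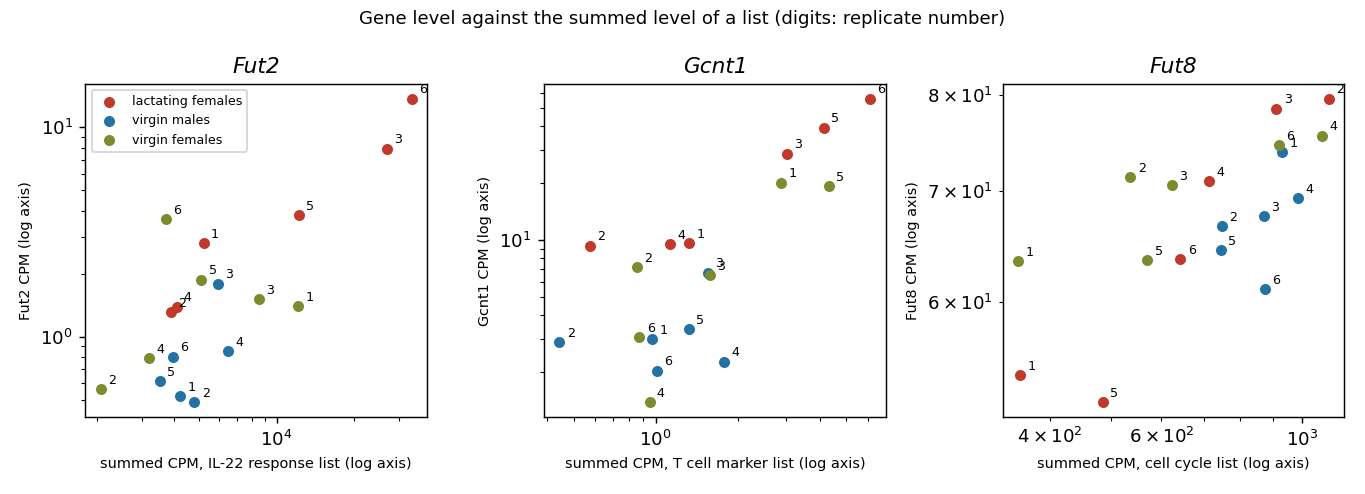
Level of Fut2, Gcnt1 and Fut8 (CPM, log axis) in each library against the summed CPM (log axis) of the IL-22 response, T cell and cell cycle lists, coloured by group with replicate numbers. Lactating females 6 and 3 are at the upper right for Fut2, with 33498 and 26938 CPM of the IL-22 response list, lactating female 6 is highest for Gcnt1 and T cell markers (6.12 CPM), and Fut8 is lowest in lactating females 5 and 1.

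The genes whose log2 CPM over the 18 libraries was most like Fut2, among 11245 genes, were Ociad2 (r = 0.873), the tyrosine aminotransferase Tat (0.871), the selenocysteine lyase Scly (0.853), the kinase Tnk2 (0.850) and the thrombopoietin gene Thpo (0.845). Those most like Gcnt1 were the mitochondrial carrier Slc25a48 (r = 0.919), the adhesion protein Ceacam2 (0.915), Thpo (0.914), the sphingolipid enzyme Sptlc2 (0.909) and the zinc exporter Slc30a1 (0.909). Thpo stood in both sets of 5, at 3.43 to 9.90 CPM in lactating females, 1.90 to 2.36 in virgin males and 1.55 to 4.98 in virgin females. These values are over libraries that include the group differences used to choose Fut2 and Gcnt1, and are a description.

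Of the 86 other genes listed for the glycan pathway, in 6 lists, 55 could be tested and 0 were called by edgeR in either direction in lactating or in virgin males over virgin females. At an unadjusted p under 0.05 there were 6 of 55 in each comparison, where all genes gave 6.44% and 8.32%. DESeq2, which called 0.423% of all genes in lactating over virgin females, called 2 there, St3gal6 (lower) and B3galt5 (higher), and 0 in virgin males over virgin females, and limma voom called 0 in both. The median log2 fold changes of the 6 lists ran from -0.11 to 0.10 in lactating over virgin females and from -0.19 to 0.06 in virgin males over virgin females. Among the enzymes that start O-glycans, Galnt1 had a log2 fold change of 0.01 (SE 0.14) in lactating over virgin females and -0.26 in virgin males over virgin females, and Galnt2, at 0.560 CPM in lactating females against 0.755 CPM in virgin females, -0.42 and -0.40. The galactosyltransferases B4galt5 and B4galt6, from the list of chain extension and terminal sugars, were at -0.07 and -0.33 in lactating over virgin females. In virgin males over virgin females they were at -0.58 and -0.49 (edgeR adjusted p = 0.421 and 0.311). Whether they act on mucin chains in these cells was not tested. B3galt5, a galactosyltransferase that builds type 1 chains, averaged 8.99 ± 14.7 CPM in lactating females, 0.824 ± 0.388 in virgin males and 0.732 ± 0.465 in virgin females (SD, n = 6 each), with a median of 0.691 CPM and a highest value of 36.4 CPM in lactating females. B3gnt3, which extends core 1, and Gcnt4, a relative of Gcnt1, were at 0.09 and -0.16 in lactating over virgin females. Among the sialyltransferases, St3gal6 averaged 13.8 ± 3.70 CPM in lactating females, 19.7 ± 2.55 in virgin males and 22.6 ± 4.64 in virgin females (SD, n = 6 each). In lactating over virgin females St3gal6 was at a log2 fold change of -0.71 (SE 0.16, edgeR adjusted p = 0.164) and St6galnac2 at -0.33 (edgeR adjusted p = 0.587).

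The sulfotransferase Chst4 averaged 15.2 ± 7.97 CPM in lactating females, 8.92 ± 2.45 in virgin males and 8.21 ± 1.65 in virgin females (SD, n = 6 each), with a log2 fold change of 0.89 (SE 0.28, edgeR adjusted p = 0.482) in lactating over virgin females. Gal3st2, which sulfates galactose, was at -0.17 there and at -0.60 in virgin males over virgin females. In the supply of GDP-fucose, the substrate of Fut2, Fut4 and Fut8, the fucose kinase Fuk was at -0.19 in lactating over virgin females and at 0.46 in virgin males over virgin females (edgeR adjusted p = 0.928 and 0.565), and the Golgi carrier relative Slc35c2 at -0.25 and -0.47. The proteins that carry the glycans gave 0 calls of 5 tested mucins by edgeR, DESeq2 or limma voom in both comparisons with virgin females, and 0 at an unadjusted p under 0.05 there. Muc2, the gel-forming mucin of goblet cells, averaged 1235 ± 442 CPM in lactating and 1291 ± 447 CPM in virgin females, and the membrane mucin Muc3 averaged 1715 ± 680 and 1251 ± 220.1 CPM in those groups (SD, n = 6 each). Muc13, another membrane mucin, was at -0.05 in lactating and -0.50 in virgin males over virgin females.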

How the data were processed

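Polyadenylated RNA of sorted ileal epithelium was sequenced with a directional kit, per the labels' protocols. The authors deposited raw read counts per Ensembl gene, 1 table per library. Per the submitters' processing notes, HISAT2 2.0.4, featureCounts of Subread 2.0.0 and build GRCm38 were used. Annotation release, strand setting and handling of multi-mapping reads are not given in the sources used here. Symbols, coordinates and exon lengths came from GENCODE M21 (47310 of 47729 identifiers matched).

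Counts were filtered with filterByExpr of edgeR 4.0.16 (15572 genes left), scaled by TMM and fitted with 1 quasi-likelihood model of 3 group means. SE was taken as |log2 fold change| over the root of F, and 95% intervals are 2.13 SE either side (15 residual degrees of freedom). Log2 CPM used a prior count of 2. Correlations used 100000 permutations within groups, two-sided. Where libraries were left out of a correlation, the deviations kept the group means of all libraries. The T cell score is log2(summed CPM + 1); the other scores are mean log2 CPM. Alternatives were RLE size factors, no filter, DESeq2 1.42.0, voom of limma 3.58.1, pairs of groups alone, a replicate block, covariates and left-out libraries.

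The members and gene lists were chosen with earlier results of these data known, and the relations with list scores after values were seen. Named genes were the members and the 5 most alike to Fut2 and to Gcnt1. From the pathway, mucin and IL-22 lists they were the genes that edgeR called and the 2 of smallest p in each. Reg3g, Il22ra1, Il10rb, Stat3, Saa1, Nos2, Muc2, B3galt5, Chga, Gcg, Tac1, Gzma, Gzmb and Itgae were added after their values were seen. The list symbol Muc17 matched no gene name. Intervals and the floor of 3 counts cover counting and library spread only.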

Additional observations from a re-analysis of the deposited data

Results flagged for a closer look

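Of 30 sets of 6 values (10 genes in 3 groups), 2 had a library whose gap to its nearest neighbour took up most of the range of its group, beyond the 95% critical value of Dixon's test, which chance passes in about 1 of 20 sets. Both were virgin male 3. Gcnt1 stood at 6.74 CPM there, with the other males at 2.04 to 3.37 CPM, and the gap was 0.718 of the range. Fut2 stood at 1.79 CPM there, with the other males at 0.485 to 0.849 CPM, and the gap was 0.721 of the range. B3gnt7 was also highest among males in that library, at 30.4 CPM.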

How the results depend on the processing

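The count of members called was 0 in both comparisons with virgin females under all 27 alternatives. Of 540 member fold changes, 511 kept their sign and their side of the threshold, 29 changed sign and 0 became called; for each change of sign the cause was not tested. These values lie near 0. In lactating over virgin females, C1galt1c1 was at -0.041 with voom and ran from -0.026 to 0.130 with 1 library left out, and B4galnt2 ran from -0.133 to 0.031. In virgin males over virgin females, C1galt1c1 was at -0.001 with RLE factors and with DESeq2, at -0.006 with voom and at -0.009 without the 2 libraries rich in Gm42418, and ran from -0.025 to 0.033 with 1 library left out. C1galt1 was at 0.006 with voom, 0.002 with the pair of groups alone and 0.037 without the 2 Gm42418 libraries, and ran from -0.066 to 0.020. Gcnt3 was at -0.007 with voom, -0.032 with the cell cycle score and -0.005 with the goblet score, and ran from -0.120 to 0.135. B3gnt7 ran from -0.182 to 0.063. Over all genes, DESeq2 called 67 and 43 genes in the lactating and the male comparison, and edgeR 9 and 13.

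With a replicate block the log2 fold changes of Fut2, Gcnt1 and B3gnt7 in lactating over virgin females were 1.421, 1.491 and 0.745 (edgeR adjusted p = 0.264, 0.655 and 0.826), and 0 members were called. Deviations from the group means correlated over 0.1 in 7 of 18 same-numbered pairs (median 0.0391, against -0.0448 for other numbers), and 5 of 18 libraries were closest to one of their own number. Same-numbered pairs ran from -0.219 to 0.477. Not every pair passed 0.1, so the numbers were not taken to pair the libraries, but whether some libraries of 1 number share a batch was not tested. Over all genes the block called 1 and 11. Depth limits St6galnac1 most, at 1 to 58 counts per library, and Fut2 next, at 19 to 473.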
